A study of Mus musculus with 12 samples.

Results

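Kupffer cells are the macrophages that live inside the sinusoids of the liver, and 10 genes that mark them, or macrophages at large, are described here in mouse liver. They are Marco, Cd163, Cd5l, Clec4f, Vsig4, Timd4, Csf1r, Cd68, C1qa and C1qb, chosen by name, and each was read from array probe sets annotated with that gene alone. Where a gene had several such probe sets, the one with the highest mean over all arrays was used. The 10 genes stand among 18193 genes measured in the same way, and all 10 were tested, with no filter on dim genes. RNA of whole livers from male mice was read on 12 single-colour Affymetrix arrays in 4 groups of 3, each array giving 1 log2 intensity per probe set. The groups were Nrf2 null mice given CDDO-Im, Nrf2 null mice given vehicle, wild type mice given CDDO-Im and wild type mice given vehicle. CDDO-Im, a synthetic triterpenoid that activates Nrf2, was given by gavage at 30 uM/kg, as the labels write it, and livers were taken after 6 hours. The label of a vehicle array gives the same route and time. The labels name neither the strain, the age, the vehicle nor how the null allele was made, and do not tie arrays to animals. The p-values therefore measure the spread between these arrays, which may be technical. A bracketed digit 2 ends the titles of all 6 vehicle arrays and of no other, and its unstated meaning and the treatment cannot be told apart.

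Kupffer cells clear bacteria, dead cells, old red blood cells and modified lipoproteins from portal blood. They do so through scavenger receptors such as Marco and Cd163, through complement receptors such as Vsig4 and through receptors for exposed phosphatidylserine such as Timd4. They depend on signalling through Csf1r, the receptor for the growth factor CSF1, and they are a main source of C1q, the recognition molecule of classical complement. Nrf2, encoded by Nfe2l2, is the transcription factor that switches on antioxidant, detoxification and heme-handling genes. In bulk liver RNA, fewer macrophages and less RNA per macrophage cannot be told apart.

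The null allele was visible in every array. Nfe2l2 read 4.78, 4.96 and 4.93 in Nrf2 null livers with CDDO-Im and 4.83, 4.87 and 4.44 in Nrf2 null livers with vehicle, against 8.37, 9.14 and 8.67 in wild type livers with CDDO-Im and 8.51, 8.60 and 8.69 in wild type livers with vehicle. Array medians lay between 5.77 and 5.83. Transcripts of pancreatic acinar cells were high in Nrf2 null vehicle replicate 2 and wild type vehicle replicate 3, where the median of 9 such markers lay 2.02 and 3.41 above its mean over arrays, against -0.68 to -0.38 in the other 10 arrays. Results that turn on those arrays are given with and without them. Differences are in log2 with the standard error of a limma model over all 12 arrays, and a gene was called when its Benjamini-Hochberg adjusted p over all 18193 genes was under 0.05. Numbers given after ± for a group mean are SD over 3 arrays.

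Of the 10 genes, Marco alone was called, and only between genotypes under CDDO-Im, where it was lower in Nrf2 null livers. In that comparison 0.824% of all genes were called lower. Cd163 and Cd5l did not pass, although their arrays did not overlap between the genotypes under CDDO-Im. Every other gene stayed uncalled in all 5 comparisons, namely the compound in Nrf2 null, the compound in wild type, the genotypes under CDDO-Im, the genotypes under vehicle, and the interaction (the CDDO-Im effect in Nrf2 null minus that in wild type). Over all genes, 5.9% were called for CDDO-Im in Nrf2 null, 1.82% for CDDO-Im in wild type, 1.45% between genotypes under CDDO-Im, 0.39% between genotypes under vehicle and 0.137% for the interaction. A count of 0 of 10 is thus near the background in the 4 comparisons without a call. At an unadjusted p under 0.05 the count was 3 of 10 for CDDO-Im in Nrf2 null, against 19.4% of all genes, and 1 of 10 for CDDO-Im in wild type, against 13.6%. It was 2 of 10 between genotypes under CDDO-Im, against 11.3% of all genes, 0 of 10 between genotypes under vehicle, against 13.2%, and 1 of 10 for the interaction, against 7.1%.

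The stretch of 250 bases ahead of the transcription start is shown for the 3 genes that separated the genotypes under CDDO-Im and for the 2 genes whose window holds the antioxidant response element core that Nrf2 binds. The sequences are RefSeq's for mouse build GRCm38.p6, read 5′ to 3′ on the gene's strand. The last base printed is the one before the annotated gene start, except for Cd163. The Cd163 window ends at 124304650, past the annotated gene start at 124304636. Capitals mark matches, on either strand, to TGACNNNGC (the antioxidant response element core), GAGGAA (the core bound by PU.1, a master regulator of macrophages) or TGCTGAC (part of the Maf recognition element). Marco lies at chr1:120505025-120505274 on the minus strand, Cd163 at chr6:124304401-124304650 on the plus strand, Cd5l at chr3:87357631-87357880 on the plus strand, Clec4f at chr6:83656117-83656366 on the minus strand and C1qb at chr4:136886201-136886450 on the minus strand.
Marco: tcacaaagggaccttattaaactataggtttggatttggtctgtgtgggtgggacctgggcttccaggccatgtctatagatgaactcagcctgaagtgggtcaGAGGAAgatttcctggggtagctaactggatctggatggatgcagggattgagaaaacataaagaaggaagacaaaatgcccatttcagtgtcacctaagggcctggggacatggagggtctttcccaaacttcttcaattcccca
Cd163: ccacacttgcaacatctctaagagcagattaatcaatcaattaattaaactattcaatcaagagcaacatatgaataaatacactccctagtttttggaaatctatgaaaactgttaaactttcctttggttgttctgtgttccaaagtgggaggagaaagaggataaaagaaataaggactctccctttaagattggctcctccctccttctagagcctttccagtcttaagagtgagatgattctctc
Cd5l: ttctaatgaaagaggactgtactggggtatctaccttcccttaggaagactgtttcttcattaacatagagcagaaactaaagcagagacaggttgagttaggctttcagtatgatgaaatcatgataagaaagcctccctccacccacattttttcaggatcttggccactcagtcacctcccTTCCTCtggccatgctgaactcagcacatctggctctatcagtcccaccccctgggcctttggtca
Clec4f: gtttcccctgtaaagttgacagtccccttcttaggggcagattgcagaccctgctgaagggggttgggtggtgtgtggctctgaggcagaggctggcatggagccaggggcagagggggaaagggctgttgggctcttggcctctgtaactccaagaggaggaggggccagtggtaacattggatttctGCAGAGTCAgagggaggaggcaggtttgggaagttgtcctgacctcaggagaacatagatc
C1qb: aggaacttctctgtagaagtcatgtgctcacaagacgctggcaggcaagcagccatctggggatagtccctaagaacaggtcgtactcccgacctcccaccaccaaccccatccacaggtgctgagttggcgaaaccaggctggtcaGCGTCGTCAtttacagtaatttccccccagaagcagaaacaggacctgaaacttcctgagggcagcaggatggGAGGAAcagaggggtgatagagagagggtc

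Of the 10 genes, 8 were searched. C1qa had no promoter window, and Csf1r, on chromosome 18, was set aside by its chromosome without a search. The antioxidant response element core TGACNNNGC was found in 2 of 8 windows, Clec4f and C1qb, whose first matching base lies 61 and 103 bases before the start, and in 10.2% of 32851 mouse windows of the same length. In both, the match is on the strand opposite to the gene. The windows of Marco, Cd163 and Cd5l hold no such letters. GAGGAA was found in 5 of 8 windows, Marco, Cd5l, Vsig4, Cd68 and C1qb, against 23.3% of all windows. TGCTGAC was found in 1 of 8, Timd4, against 3.8% of all windows. A match is a description of letters and not of binding.

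Marco, a class A scavenger receptor that binds bacteria and particles, read 5.86, 5.90 and 5.77 in Nrf2 null livers with CDDO-Im, 6.21, 5.89 and 6.03 in Nrf2 null livers with vehicle, 6.90, 7.87 and 6.72 in wild type livers with CDDO-Im and 6.92, 6.59 and 6.07 in wild type livers with vehicle. Each Nrf2 null CDDO-Im array was below every wild type CDDO-Im array, and the highest value of all 12 was wild type CDDO-Im replicate 2. Under CDDO-Im, Marco averaged 5.84 ± 0.06 in Nrf2 null livers and 7.17 ± 0.62 in wild type livers (SD, n = 3 each). The difference, Nrf2 null minus wild type, was -1.32 ± 0.26 (SE; adjusted p = 0.0307 by limma; 95% interval -1.90 to -0.74), which is 2.50-fold lower in Nrf2 null livers. Values in Nrf2 null livers were close to the array medians, and no detection call was used to set them against background. Without wild type CDDO-Im replicate 2 the difference was -0.97 (adjusted p = 0.053), and without Nrf2 null CDDO-Im replicate 1, 2 or 3 the adjusted p was 0.0958, 0.0813 or 0.0993, so the call did not survive leaving out any of these 4 arrays. A second, dimmer Marco probe set gave -0.69 (adjusted p = 0.286 when every probe set was tested), and the mean of both gave -1.01 (adjusted p = 0.0849).

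The remaining Marco comparisons were not called. CDDO-Im minus vehicle was 0.64 ± 0.26 in wild type (95% interval 0.06 to 1.22; adjusted p = 0.301 by limma) and -0.20 ± 0.26 in Nrf2 null (95% interval -0.78 to 0.38; adjusted p = 0.767). The CDDO-Im and vehicle arrays overlapped in both genotypes. The interaction was -0.84 ± 0.37 (unadjusted p = 0.0453; adjusted p = 0.695), so a difference in the response between genotypes was not shown. Under vehicle, Nrf2 null minus wild type was -0.48 ± 0.26 (adjusted p = 0.472). Without both arrays with acinar transcripts, CDDO-Im minus vehicle was -0.28 in Nrf2 null and 0.41 in wild type, the interaction -0.69 and the difference under vehicle -0.63, with none called.

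**Figure D1:**
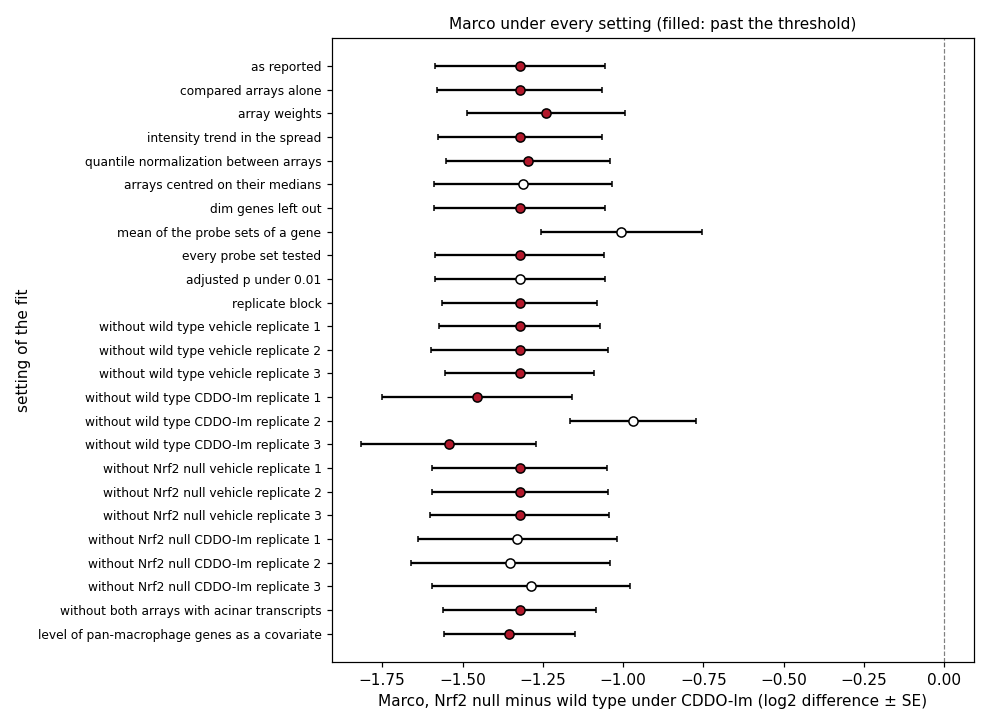
Marco, Nrf2 null minus wild type under CDDO-Im, as a log2 difference with its standard error (x axis), under each setting of the fit (rows); filled points are past the threshold. All 25 values lie between -1.54 and -0.97, and the adjusted p runs from 0.00629 to 0.0993.

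The plot of Marco by setting shows that its sign held under the 24 alternatives tried. Many of them leave the difference at -1.32 by construction, such as omissions of vehicle arrays, the stricter threshold and the replicate block. In those the sign was fixed in advance. Under 7 of the 24 alternatives Marco was no longer called. The 7 are the 4 omissions named above, the mean of both probe sets, centring each array on its median (adjusted p = 0.05, before rounding just over it) and a threshold of 0.01.

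Cd163, the receptor for haptoglobin bound to hemoglobin, read 5.86, 5.38 and 5.56 in Nrf2 null livers with CDDO-Im, 6.43, 6.29 and 6.41 in Nrf2 null livers with vehicle, 6.33, 7.00 and 6.28 in wild type livers with CDDO-Im and 7.21, 7.42 and 5.79 in wild type livers with vehicle. The 3 Nrf2 null CDDO-Im arrays were below all 3 arrays of Nrf2 null vehicle and of wild type CDDO-Im, and wild type vehicle replicate 3, an array with acinar transcripts, was far below the other two of its group. Nrf2 null minus wild type under CDDO-Im was -0.93 ± 0.34 (95% interval -1.68 to -0.19; unadjusted p = 0.0185; adjusted p = 0.28 by limma). CDDO-Im minus vehicle in Nrf2 null was -0.77 ± 0.34 (unadjusted p = 0.0438; adjusted p = 0.24), and in wild type it was -0.27 ± 0.34 (adjusted p = 0.832).

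Wild type vehicle replicate 3 decided these Cd163 calls. Without it the model called Cd163 in all 4 pairwise comparisons: CDDO-Im minus vehicle had an adjusted p of 0.0324 in wild type and 0.0177 in Nrf2 null, and Nrf2 null minus wild type had an adjusted p of 0.0437 under vehicle and 0.0162 under CDDO-Im. That array is in neither the comparison in Nrf2 null nor the one under CDDO-Im, whose differences stayed at -0.77 and -0.93. There only the standard error, which rests on a spread shared by all groups, fell from 0.34 to 0.18. Without both arrays with acinar transcripts, CDDO-Im minus vehicle was -0.78 in wild type (adjusted p = 0.045) and -0.82 in Nrf2 null (adjusted p = 0.0388). In that setting Nrf2 null minus wild type was -0.90 under vehicle (adjusted p = 0.118) and -0.93 under CDDO-Im (adjusted p = 0.025). The part of the acinar transcripts in the Cd163 level of that array was not tested.

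Cd5l, a secreted scavenger protein also known as AIM, read 9.93, 10.03 and 10.03 in Nrf2 null livers with CDDO-Im, 9.72, 8.88 and 10.03 in Nrf2 null livers with vehicle, 10.96, 10.97 and 10.25 in wild type livers with CDDO-Im and 10.87, 10.17 and 9.46 in wild type livers with vehicle. Under CDDO-Im the Nrf2 null arrays sat within 0.1 of each other and below all 3 wild type arrays, while under vehicle the genotypes overlapped. Nrf2 null minus wild type was -0.73 ± 0.35 under CDDO-Im (95% interval -1.49 to 0.02; adjusted p = 0.463 by limma) and -0.62 ± 0.35 under vehicle (adjusted p = 0.479). For Cd5l, CDDO-Im minus vehicle was 0.45 ± 0.35 in Nrf2 null and 0.56 ± 0.35 in wild type, and without both arrays with acinar transcripts it was 0.12 in Nrf2 null and 0.21 in wild type. Marco, Cd163 and Cd5l were the 3 of 10 genes whose genotypes did not overlap on the lower side under CDDO-Im, against 7.82% of all genes.

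**Figure D2:**
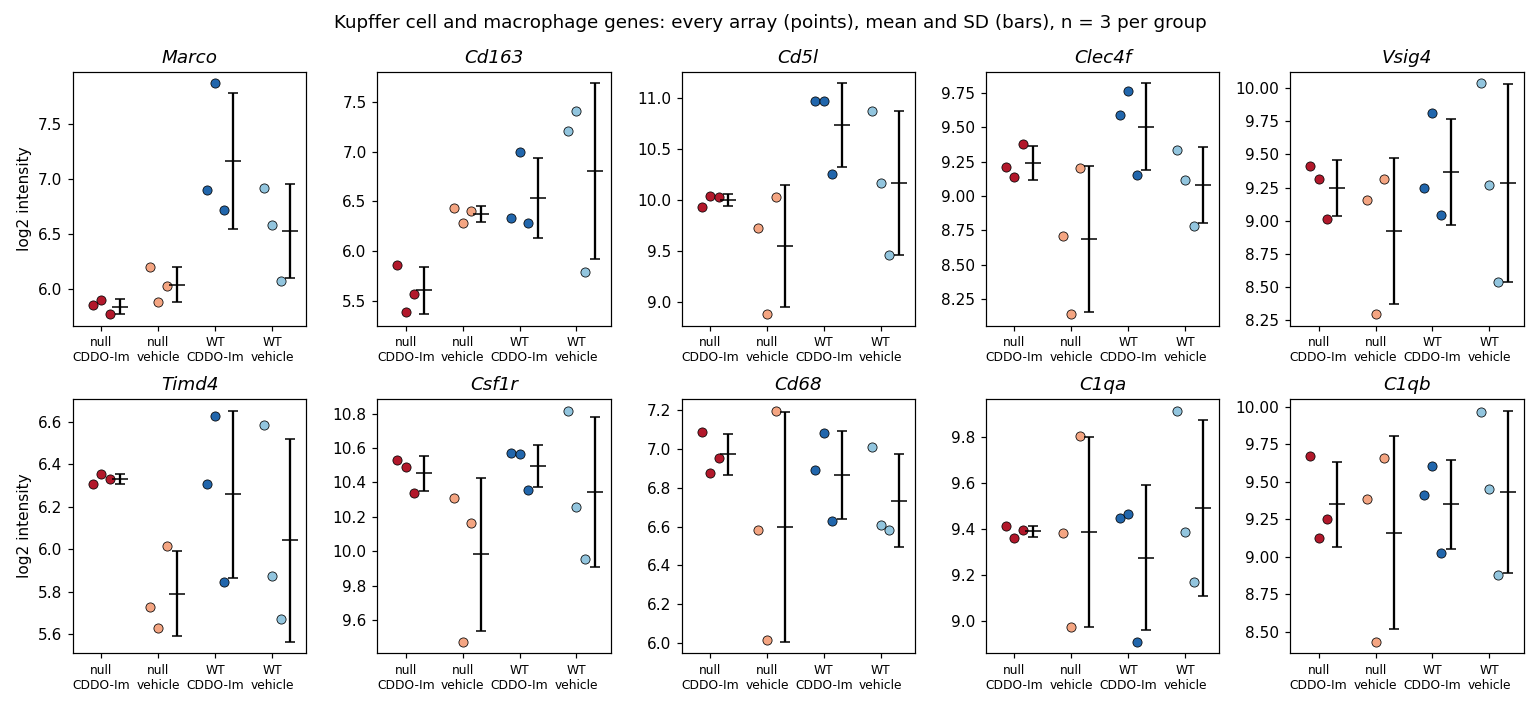
Log2 intensity (y axis) of each of the 10 genes on every array (points) in the 4 groups (x axis), with the group mean and SD over 3 arrays (bars). Marco and Cd163 are lowest on average in Nrf2 null livers with CDDO-Im, and the C1q genes overlap across all groups.

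The plot of every array also shows how wide the vehicle groups are. Clec4f, a C-type lectin found on Kupffer cells in mice, read 9.21, 9.14 and 9.38 in Nrf2 null livers with CDDO-Im, 8.71, 8.14 and 9.21 in Nrf2 null livers with vehicle, 9.59, 9.77 and 9.15 in wild type livers with CDDO-Im and 9.33, 9.12 and 8.78 in wild type livers with vehicle. Groups overlapped in each comparison, and the lowest value was Nrf2 null vehicle replicate 2, an array with acinar transcripts. CDDO-Im minus vehicle was 0.56 ± 0.24 in Nrf2 null (95% interval 0.04 to 1.08; unadjusted p = 0.0379; adjusted p = 0.221 by limma) and 0.43 ± 0.24 in wild type (adjusted p = 0.499). Without both arrays with acinar transcripts these were 0.28 in Nrf2 null and 0.28 in wild type.

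Vsig4, the complement receptor of the immunoglobulin family that takes up particles coated with C3b, read 9.41, 9.32 and 9.01 in Nrf2 null livers with CDDO-Im, 9.16, 8.30 and 9.32 in Nrf2 null livers with vehicle, 9.24, 9.81 and 9.04 in wild type livers with CDDO-Im and 10.03, 9.27 and 8.54 in wild type livers with vehicle. The 3 wild type vehicle arrays alone covered most of the range, and the groups overlapped in all 4 pairwise comparisons. CDDO-Im minus vehicle was 0.32 ± 0.35 in Nrf2 null and 0.08 ± 0.35 in wild type, and Nrf2 null minus wild type was -0.12 ± 0.35 under CDDO-Im. With both arrays that carry acinar transcripts left out, CDDO-Im minus vehicle was 0.0068 in Nrf2 null, and in wild type its sign turned, to -0.29.

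Timd4, the phosphatidylserine receptor of long-lived resident Kupffer cells, read 6.31, 6.35 and 6.33 in Nrf2 null livers with CDDO-Im, 5.73, 5.63 and 6.01 in Nrf2 null livers with vehicle, 6.31, 6.63 and 5.84 in wild type livers with CDDO-Im and 6.58, 5.87 and 5.67 in wild type livers with vehicle. In Nrf2 null livers every CDDO-Im array was above every vehicle array, and in wild type livers the treatments overlapped. CDDO-Im minus vehicle was 0.54 ± 0.23 in Nrf2 null (95% interval 0.05 to 1.03; unadjusted p = 0.034; adjusted p = 0.206 by limma) and 0.22 ± 0.23 in wild type (adjusted p = 0.783). In a fit to the Nrf2 null arrays alone, Timd4 was called (adjusted p = 0.0213). The interaction was 0.32 ± 0.32 (adjusted p = 0.912). Leaving out the arrays with acinar transcripts gave 0.46 for CDDO-Im minus vehicle in Nrf2 null and 0.03 in wild type.

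Csf1r, the CSF1 receptor, whose signalling keeps resident macrophages alive, read 10.53, 10.49 and 10.34 in Nrf2 null livers with CDDO-Im, 10.31, 9.48 and 10.16 in Nrf2 null livers with vehicle, 10.57, 10.57 and 10.36 in wild type livers with CDDO-Im and 10.82, 10.26 and 9.95 in wild type livers with vehicle. As with Timd4, the Nrf2 null CDDO-Im arrays lay above the Nrf2 null vehicle arrays with no overlap. CDDO-Im minus vehicle was 0.47 ± 0.22 in Nrf2 null (adjusted p = 0.277 by limma) and 0.15 ± 0.22 in wild type (adjusted p = 0.861). When the arrays with acinar transcripts were left out it was 0.22 in Nrf2 null and, with the sign turned, -0.04 in wild type. Between genotypes under CDDO-Im the difference was -0.05 ± 0.22 (95% interval -0.53 to 0.44), and 2 dimmer probe sets of Csf1r gave 0.01 and -0.18.

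In Nrf2 null livers, Timd4 and Csf1r were the 2 of 10 genes whose CDDO-Im arrays lay above the vehicle arrays with no overlap, against 11.6% of all genes, and Cd163 was the 1 that lay below, against 11.4%. In wild type livers the count was 0 of 10 in either direction, against 16.6% of all genes. Without Nrf2 null vehicle replicate 2, the array with the lowest values, the median of the 10 differences in Nrf2 null was 0.05, against 0.35 with it.

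Cd68, a lysosomal membrane protein of macrophages, read 7.09, 6.88 and 6.95 in Nrf2 null livers with CDDO-Im, 6.58, 6.02 and 7.20 in Nrf2 null livers with vehicle, 6.89, 7.08 and 6.63 in wild type livers with CDDO-Im and 7.01, 6.61 and 6.58 in wild type livers with vehicle. The lowest and the highest array of Cd68 were both in the Nrf2 null vehicle group. Its largest difference was CDDO-Im minus vehicle in Nrf2 null, 0.37 ± 0.24 (adjusted p = 0.445 by limma), and between genotypes it was 0.11 ± 0.24 under CDDO-Im and -0.13 ± 0.24 under vehicle. Without both arrays with acinar transcripts, CDDO-Im minus vehicle in Nrf2 null was 0.08 and the genotype difference under vehicle was 0.08, with its sign turned.

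C1qa and C1qb encode chains of C1q. C1qa read 9.41, 9.36 and 9.40 in Nrf2 null livers with CDDO-Im, 9.38, 8.98 and 9.80 in Nrf2 null livers with vehicle, 9.45, 9.47 and 8.91 in wild type livers with CDDO-Im and 9.91, 9.39 and 9.17 in wild type livers with vehicle. C1qb read 9.67, 9.13 and 9.25 in Nrf2 null livers with CDDO-Im, 9.38, 8.44 and 9.66 in Nrf2 null livers with vehicle, 9.41, 9.61 and 9.03 in wild type livers with CDDO-Im and 9.96, 9.46 and 8.88 in wild type livers with vehicle. Both genes overlapped between the groups in every pairwise comparison. Under CDDO-Im, Nrf2 null minus wild type was 0.11 ± 0.22 for C1qa (95% interval -0.37 to 0.60) and -0.0001 ± 0.32 for C1qb (95% interval -0.70 to 0.70). A change smaller than these intervals was not detectable with 3 arrays a group. The intervals are not adjusted for the number of genes tested, so larger changes could go uncalled too. The 2 dimmer C1qb probe sets gave 0.05 and 0.06. CDDO-Im minus vehicle in Nrf2 null was 0.0037 ± 0.22 for C1qa and 0.19 ± 0.32 for C1qb, and without both arrays with acinar transcripts it was -0.20 for C1qa and -0.17 for C1qb. In wild type it was -0.21 ± 0.22 for C1qa and -0.08 ± 0.32 for C1qb, and without those arrays it was -0.37 for C1qa and -0.36 for C1qb.

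**Figure D3:**
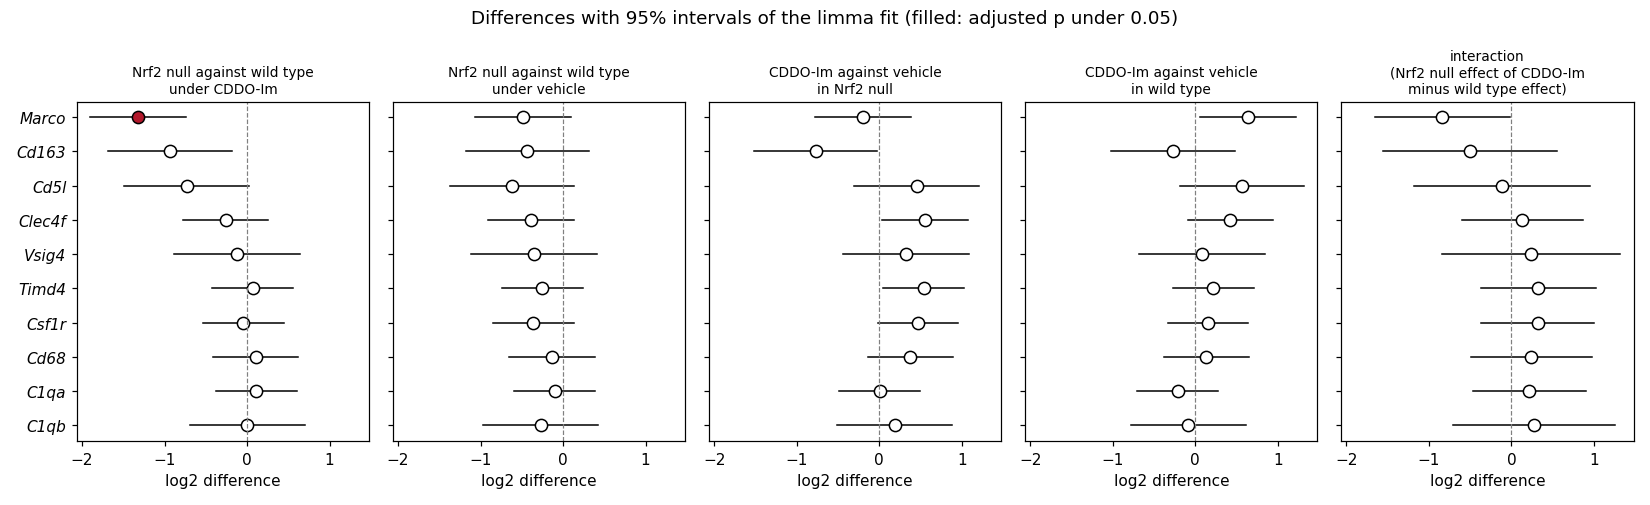
Log2 difference (x axis) of each gene (rows) in the 5 comparisons (panels), with 95% intervals of the limma fit; filled points have an adjusted p under 0.05. Marco between genotypes under CDDO-Im is the one filled point, at -1.32.

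Across the 10 genes together, the plot of differences shows which signs the genes share. CDDO-Im minus vehicle was above 0 for 8 of 10 genes in Nrf2 null (median 0.35, against -0.01 over all genes) and for 7 of 10 in wild type (median 0.14, against 0.01). Nrf2 null minus wild type under vehicle was below 0 for all 10 genes (median -0.36, against 0.02 over all genes), with none called and 0 of 10 not overlapping, against 17% of all genes. Under CDDO-Im, Nrf2 null minus wild type was below 0 for 7 of 10 (median -0.08, against 0.01). The genes vary together, as shown next, so these counts do not weigh 10 separate observations, and the comparisons share arrays. Without both arrays with acinar transcripts the medians for CDDO-Im were 0.05 in Nrf2 null and -0.0047 in wild type, and under vehicle 9 of 10 genes were below 0 (median -0.33). Single arrays moved these medians as well. Under vehicle, 7 of 10 genes were below 0 (median -0.11) without Nrf2 null vehicle replicate 2, and 6 of 10 (median -0.07) without wild type vehicle replicate 1. Under CDDO-Im, 10 of 10 were below 0 (median -0.22) without wild type CDDO-Im replicate 3, and 5 of 10 without wild type CDDO-Im replicate 2 (median 0.05) or Nrf2 null CDDO-Im replicate 3 (median 0.005). In wild type, the median for CDDO-Im was 0.42 without wild type vehicle replicate 1 and 0.03 without wild type CDDO-Im replicate 2.

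The 10 genes moved together from array to array. For 8 of them the SD within groups (0.32 to 0.51) was larger than the SD of the 4 group means (0.09 to 0.49), and the exceptions were Marco (0.39 within and 0.59 between groups) and Cd163 (0.50 within and 0.52 between groups). In wild type CDDO-Im replicate 2 and wild type vehicle replicate 1 all 10 genes were above their own means, by 0.57 and 0.56 on average. In Nrf2 null vehicle replicate 2 and wild type vehicle replicate 3, the arrays with acinar transcripts, 0 of 10 were, and the averages were -0.71 and -0.42. A separate list of 22 pan-macrophage and myeloid genes that holds none of the 10 was also lowest in those arrays, at -0.29 and -0.20, and highest in wild type vehicle replicate 1, at 0.32. What the acinar transcripts contribute to the low macrophage levels was not tested.

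**Figure D4:**
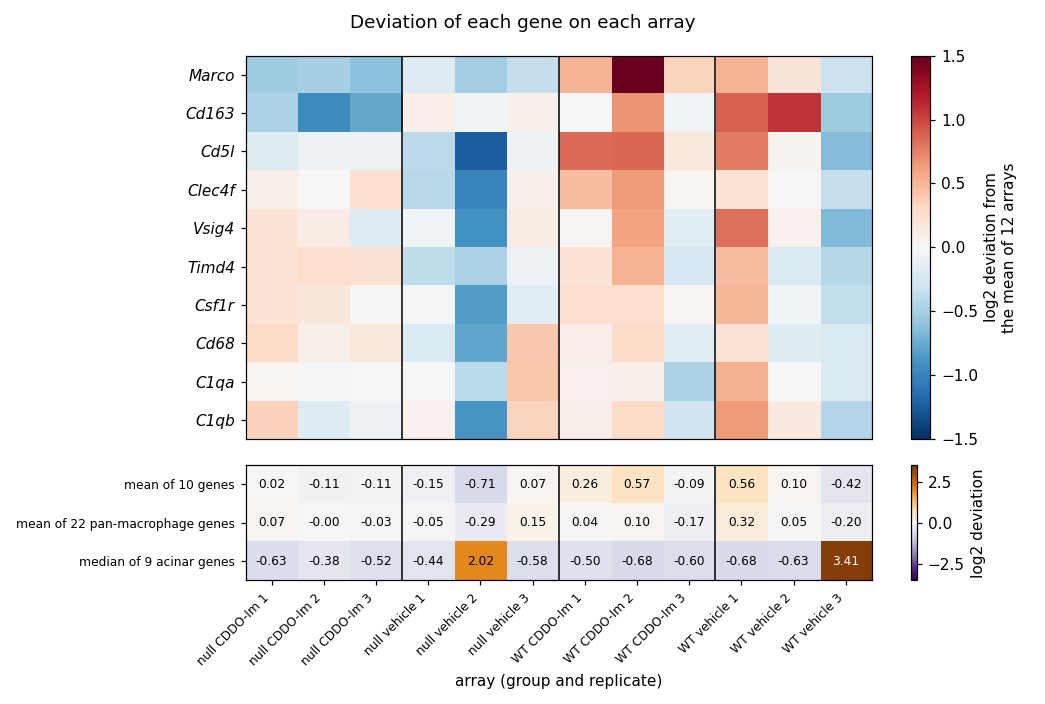
Upper panel: log2 deviation of each gene (rows) from its mean over 12 arrays, by array (columns). Lower panel: the mean deviation of the 10 genes, of 22 pan-macrophage and myeloid genes and the median deviation of 9 acinar markers, which stands at 2.02 in Nrf2 null vehicle replicate 2 and 3.41 in wild type vehicle replicate 3.

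Marco was also read relative to this shared movement. Set against the mean deviation of Clec4f, Vsig4, Timd4, Csf1r, Cd68, C1qa and C1qb on the same array, Marco was at -0.73, -0.55 and -0.68 in Nrf2 null livers with CDDO-Im, -0.05, 0.25 and -0.52 in Nrf2 null livers with vehicle, 0.33, 1.10 and 0.51 in wild type livers with CDDO-Im and 0.04, 0.23 and 0.06 in wild type livers with vehicle. By this measure, the 3 wild type CDDO-Im arrays were the highest and the 3 Nrf2 null CDDO-Im arrays the lowest of all 12. The reference leaves out Cd163 and Cd5l, which on these same arrays were also lower in Nrf2 null livers under CDDO-Im without overlap. It is therefore not independent of the values, and this order is a description that adds no support to the Marco difference. Set against the 22 pan-macrophage genes instead, Marco was at -0.61, -0.49 and -0.59 in Nrf2 null livers with CDDO-Im, -0.14, -0.22 and -0.52 in Nrf2 null livers with vehicle, 0.47, 1.38 and 0.50 in wild type livers with CDDO-Im and 0.20, 0.14 and -0.12 in wild type livers with vehicle. By that measure the wild type CDDO-Im arrays were again the highest, but Nrf2 null vehicle replicate 3 lay below Nrf2 null CDDO-Im replicate 2. With the level of the 22 pan-macrophage genes on each array added to the model as a covariate, an alternative chosen after seeing the data, the Marco difference between genotypes under CDDO-Im was -1.35 (adjusted p = 0.00629 by limma). In that fit Cd5l was called as well, at -0.79 between genotypes under CDDO-Im (adjusted p = 0.00232) and at 0.74 for CDDO-Im minus vehicle in wild type (adjusted p = 0.00471).

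The array plot shows the same by colour, and the correlations put numbers to it. Over the 12 arrays, which share groups and the 2 arrays with acinar transcripts, Pearson's r between pairs of the 10 genes had a median of 0.715 and ran from 0.0039 for Cd68 with Cd163 to 0.92 for Cd5l with Clec4f. After each group's mean was taken off, the median was 0.80 and the range 0.34 to 0.96. Marco and Cd163 had the weakest ties to the others, with median r of 0.48 and 0.36, against 0.59 to 0.81 for the other 8.

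**Figure D5:**
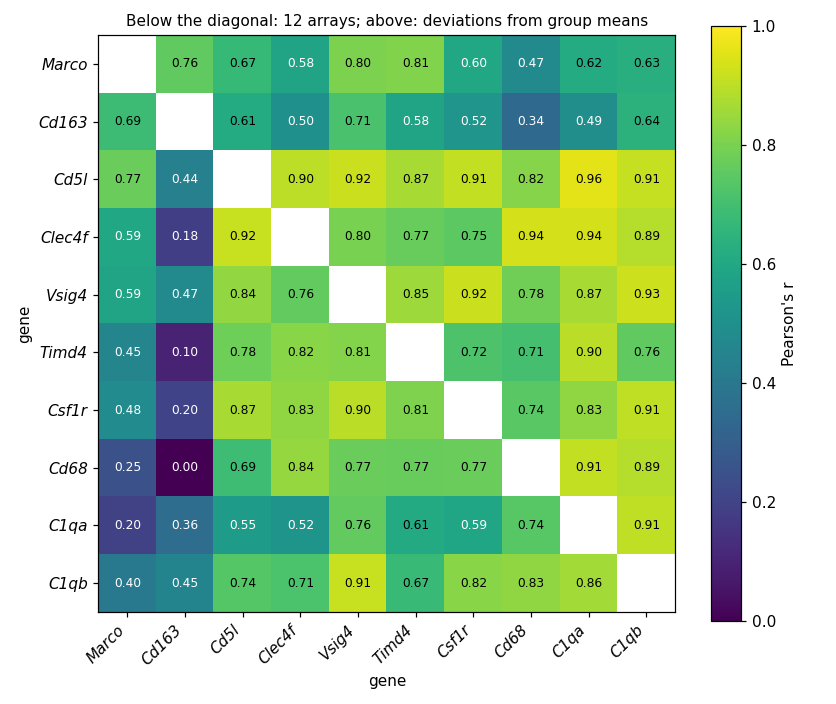
Pearson's r between each pair of the 10 genes (rows and columns), over the 12 arrays below the diagonal and over deviations from group means above it. The columns of Marco and Cd163 are the darkest below the diagonal, with median r of 0.48 and 0.36.

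The spread within a group differed too. Of the 10 genes, 9 had their smallest SD in Nrf2 null livers with CDDO-Im, where 27.6% of all genes do. The median SD of the 10 was 0.10 in that group, 0.49 in Nrf2 null vehicle, 0.35 in wild type CDDO-Im and 0.46 in wild type vehicle, against 0.10, 0.12, 0.11 and 0.10 over all genes. The genes are not independent, so 1 array that is high or low in all of them widens the SD of all.

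The genes whose pattern over the 12 arrays was most like each member, by Pearson's r among all 18193, are given as a description. For C1qb they were C1qc, which encodes the third C1q chain (r = 0.98), Vsig4 (0.91) and Wfdc17 (0.91). For C1qa they were Wfdc17 (0.92), C1qc (0.90) and Cfp, which encodes properdin (0.90). Vsig4 was closest to C1qc (0.93), Cd53 (0.92) and Ptprc, which encodes the leukocyte antigen CD45 (0.92). Csf1r was closest to Igsf6 (0.92), Cttnbp2nl (0.91) and Cd53 (0.90), and Timd4 to Cd53 (0.85), Folr2 (0.85) and Tab3 (0.83). For Clec4f they were Arid1b (0.96), Cdh5 (0.95) and Srgn (0.93), and for Cd5l they were Ctla2b (0.92), Clec4f (0.92) and Tyrobp, which encodes the myeloid adaptor DAP12 (0.91). Cd68 was closest to Dennd1a (0.90), Adgb (0.89) and Cyba, which encodes a subunit of the phagocyte oxidase (0.89). The nearest genes of Marco were Ctla2a (0.93), Slc25a37, which encodes a mitochondrial iron importer (0.93), and Tars (0.92), and those of Cd163 were Lars (0.96), Tgfbr1 (0.96) and Bet1 (0.95). None of the nearest genes of Marco or Cd163 was among the 10.

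Other genes of Kupffer cells gave few calls. Of 18 further Kupffer cell markers, 1 was called in 1 comparison, where 1.45% of all genes were called. C6, a component of the membrane attack complex, averaged 11.20 in Nrf2 null livers and 9.71 in wild type livers under CDDO-Im, a difference of 1.49 (adjusted p = 0.0154 by limma). Under vehicle C6 was also higher in Nrf2 null livers, at 10.81 against 9.78 in wild type livers, a difference that was not called. The median difference of the 18 was 0.17 for CDDO-Im in Nrf2 null, 0.06 for CDDO-Im in wild type, -0.09 between genotypes under vehicle and -0.03 under CDDO-Im. Of 22 pan-macrophage and myeloid genes, 1 was called, for CDDO-Im in Nrf2 null livers, where 5.9% of all genes were called. It was Cd14, a receptor for bacterial lipopolysaccharide, which fell by 0.45 (adjusted p = 0.0421 by limma), to a mean of 7.38 with CDDO-Im, against 7.82 with vehicle. The median difference of the 22 in that comparison was 0.10, opposite in sign to Cd14.

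Among 24 scavenger and phagocytic receptors other than the 10 genes, 2 were called lower in Nrf2 null livers under CDDO-Im, as Marco was. Of all genes, 0.824% were called lower there. Clec4n, the fungal receptor dectin-2, averaged 5.64 in Nrf2 null livers and 6.37 in wild type livers under CDDO-Im, a difference of -0.73 (adjusted p = 0.00788 by limma), and it rose with CDDO-Im in wild type livers by 0.56 (adjusted p = 0.0371). Mertk, a kinase receptor for apoptotic cells, averaged 6.79 in Nrf2 null livers and 7.63 in wild type livers under CDDO-Im, a difference of -0.85 (adjusted p = 0.0272). Cd36, a fatty acid and lipoprotein receptor that hepatocytes also express, rose with CDDO-Im in Nrf2 null livers by 0.76 (adjusted p = 0.0168) and under vehicle it averaged 7.03 in Nrf2 null livers and 7.84 in wild type livers, a difference of -0.81 (adjusted p = 0.0449). None of the others on that list was called in any comparison. The median of the 24 was 0.00 between genotypes under CDDO-Im.

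Partners of C1q and of Csf1r and the signals of the Kupffer cell niche gave calls for CDDO-Im against vehicle alone, where 5.9% of all genes were called in Nrf2 null and 1.82% in wild type. Of 12 genes of the C1 complex and complement receptors, C1qbp, a mitochondrial protein that binds C1q, rose with CDDO-Im by 0.60 in Nrf2 null livers (adjusted p = 0.0133 by limma) and by 0.53 in wild type livers (adjusted p = 0.0362). Calr, which encodes the chaperone calreticulin, fell by 0.87 with CDDO-Im in Nrf2 null livers (adjusted p = 0.0135) and fell by 0.73 in wild type livers (adjusted p = 0.0474). The other 10 of that list were not called. Of 13 genes of the CSF1 receptor axis, Cebpa, a transcription factor of hepatocytes and myeloid cells, rose with CDDO-Im in Nrf2 null livers by 0.59 (adjusted p = 0.0405), and the other 12 were not called. Of 16 niche signals and transcription factors of Kupffer cells, Id1, a target of bone morphogenetic protein signalling, rose with CDDO-Im by 1.08 in Nrf2 null livers (adjusted p = 0.0168) and by 1.08 in wild type livers (adjusted p = 0.0258), and the other 15 were not called.

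Iron and heme recycling, a task of Kupffer cells that hepatocytes share, was the macrophage-related list with the most calls in wild type livers. Of its 11 genes, 4 rose and 1 fell with CDDO-Im in wild type livers, where 1.82% of all genes were called. In Nrf2 null livers 1 rose and 1 fell, where 5.9% of all genes were called. Blvrb, which encodes a biliverdin reductase, rose by 0.64 in Nrf2 null livers (adjusted p = 0.0263 by limma) and by 2.24 in wild type livers (adjusted p = 6.27e-06). Slc48a1, a heme transporter, rose by 1.37 in wild type livers (adjusted p = 0.000421), and Tfrc, the transferrin receptor, rose by 2.24 there (adjusted p = 0.00591). Between genotypes under CDDO-Im, Blvrb was at 10.23 in Nrf2 null livers and 12.36 in wild type livers, and Slc48a1 at 8.53 in Nrf2 null livers and 9.81 in wild type livers, differences of -2.13 (adjusted p = 9.05e-06) and -1.28 (adjusted p = 0.000781).

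Of 23 cytokine and activation genes of macrophages, Cxcl1, a chemokine that draws neutrophils and is also made by hepatocytes, fell by 2.31 with CDDO-Im in Nrf2 null livers, to 9.11 with CDDO-Im, against 11.43 with vehicle (adjusted p = 0.000232 by limma). Under vehicle Cxcl1 averaged 11.43 in Nrf2 null livers and 9.49 in wild type livers, a difference of 1.94 (adjusted p = 0.000349). Il1rn, the interleukin 1 receptor antagonist, fell by 0.34 with CDDO-Im in Nrf2 null livers (adjusted p = 0.0288) and fell by 0.41 in wild type livers (adjusted p = 0.0248). None of the others on the list was called. Of all genes, 5.9% were called for CDDO-Im in Nrf2 null, 1.82% for CDDO-Im in wild type and 0.39% between genotypes under vehicle. The median difference of the 23 was 0.02 for CDDO-Im in Nrf2 null, -0.01 in wild type and 0.03 between genotypes under vehicle. Of 17 lysosome genes, 3 rose and 1 fell with CDDO-Im in Nrf2 null livers, where 5.9% of all genes were called. Among them were Lipa, the acid lipase (1.10, adjusted p = 0.00499), Npc2, a cholesterol carrier (0.65, adjusted p = 0.00771), and Lamp1 (0.35, adjusted p = 0.0282). In wild type livers 1 of 17 rose with CDDO-Im, the protease Ctsd (0.33, adjusted p = 0.0474), against 1.82% of all genes called. Under CDDO-Im, Hexa was lower in Nrf2 null livers (-1.38, adjusted p = 0.00492) and Ctsa higher (0.63, adjusted p = 0.0196), where 1.45% of all genes were called.

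Of 8 Nrf2 targets, 6 rose with CDDO-Im in wild type livers (median of the 8, 1.58), against 1.82% of all genes called. In Nrf2 null livers 1 rose and 1 fell (median 0.07), against 5.9% of all genes called. Nqo1, a quinone reductase, averaged 4.88 with CDDO-Im and 4.84 with vehicle in Nrf2 null livers, and 7.20 with CDDO-Im and 5.12 with vehicle in wild type livers. Srxn1, which repairs peroxiredoxins, fell by 0.62 in Nrf2 null livers (adjusted p = 0.00405 by limma) and rose by 2.19 in wild type livers (adjusted p = 2.75e-08). None of the 10 macrophage genes was called for CDDO-Im in wild type livers on the same arrays, where Marco had the largest difference of the 10, 0.64.

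Markers of other cells in the liver gave scattered calls beside these results. As given above, 5.9% of all genes were called for CDDO-Im in Nrf2 null and 1.82% for CDDO-Im in wild type. Between genotypes the share was 1.45% under CDDO-Im and 0.39% under vehicle. Of 11 neutrophil genes, S100a8 fell by 1.27 with CDDO-Im in Nrf2 null livers (adjusted p = 0.011 by limma) and S100a9 fell by 0.95 (adjusted p = 0.0276), with S100a8 below the array median on 10 of 12 arrays. Of 12 monocyte genes, Chil3 fell by 0.52 with CDDO-Im in Nrf2 null livers (adjusted p = 0.00716) and was 0.47 higher in Nrf2 null than in wild type livers under vehicle (adjusted p = 0.0286), and Treml4 was lower in Nrf2 null than in wild type livers under CDDO-Im (-0.69, adjusted p = 0.0281). Chil3 lay below the array median on all 12 arrays and Treml4 on 11. Of 8 genes of lipid-associated and scar macrophages, Fabp5, a fatty acid carrier that hepatocytes also express, fell by 2.96 with CDDO-Im in wild type livers (adjusted p = 0.0021) and was 1.91 higher in Nrf2 null than in wild type livers under CDDO-Im (adjusted p = 0.0319).

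Of 16 genes of the sinusoidal endothelium, the cells that Kupffer cells adhere to, Lyve1, a hyaluronan receptor, rose with CDDO-Im in wild type livers by 2.26 (adjusted p = 0.0013 by limma), and under CDDO-Im it averaged 5.16 in Nrf2 null livers and 7.09 in wild type livers (-1.92, adjusted p = 0.00412). Lyve1 was below the array median on 9 of 12 arrays. With CDDO-Im, 2 of the 16 were called higher in Nrf2 null, against 5.9% of all genes called, and 2 in wild type, against 1.82%. The median difference of the 16 was 0.06 for CDDO-Im in Nrf2 null and -0.16 in wild type. Between genotypes under CDDO-Im it was 0.15, opposite in sign to Lyve1. Oit3 rose with CDDO-Im by 0.63 in Nrf2 null livers (adjusted p = 0.011) and by 0.51 in wild type livers (adjusted p = 0.0332), and Ehd3 rose by 0.36 in Nrf2 null livers (adjusted p = 0.0441) and was 0.45 higher in Nrf2 null than in wild type livers under CDDO-Im (adjusted p = 0.0383). Fgb, 1 of 9 hepatocyte genes, fell by 0.46 with CDDO-Im in Nrf2 null livers (adjusted p = 0.0416) and fell by 0.67 in wild type livers (adjusted p = 0.0148). None of 13 lymphocyte, 9 dendritic cell, 12 stellate cell, 5 erythroid and 9 acinar genes was called in any of the 5 comparisons. The part of other cell types in the macrophage results was not tested.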

How the data were processed

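The authors deposited log2 intensities, 1 value per probe set on each of 12 arrays. The submitters' processing notes name RMA as the method, with no version. Values were used as deposited, with array medians between 5.77 and 5.83. Of 45101 probe sets, 34945 named 1 gene in the platform annotation, and the brightest of each gene was kept, which left 18193 genes. Groups came from the labels. Group means were estimated jointly over the 12 arrays in R 4.3.3 with limma 3.58.1 (moderated test, two-sided, 3.808 prior and 8 residual degrees of freedom), for 5 comparisons. With 3 arrays against 3 the smallest exact permutation p is 0.1, so no permutation test of single genes was used. Precision is limited by the number of arrays, and no detection calls were used.

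Genes named besides the 10 are Nfe2l2, the up to 3 members of each list with the smallest adjusted p among those called in a comparison, and the 3 genes most like each of the 10. There were 12 lists of cell type markers (144 of 161 entries measured) and 8 gene lists (124 of 131). The 10 genes, the lists and the alternatives were chosen with earlier results of these data known, so they are described with no test of a list. Counts are given, and for some lists and comparisons medians as well. Promoter windows are RefSeq's for GRCm38.p6. The fit was tested on simulated data. Alternatives covered the arrays fitted, array weights, an intensity trend, quantile normalization, median centring, a filter on dim genes, the probe set used, the threshold, a replicate block and leaving out arrays.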

Additional observations from a re-analysis of the deposited data

Results flagged for a closer look

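A difference in the CDDO-Im response between the genotypes was called for 25 of all genes by the limma test of the interaction (Nrf2 null effect minus wild type effect), and 7 of them are on the lists described above. For the 10 Kupffer cell and macrophage genes it was not called (smallest adjusted p = 0.695 by limma). In iron and heme recycling the interaction was -1.60 for Blvrb (adjusted p = 0.00775) and -1.30 for Slc48a1 (adjusted p = 0.0364). For the chemokine gene Cxcl1 it was -1.88 (adjusted p = 0.00715). Among Nrf2 targets it was -2.81 for Srxn1 (adjusted p = 8.7e-08), -2.03 for Nqo1 (adjusted p = 5.04e-06), -1.80 for Gsr, which encodes glutathione reductase (adjusted p = 0.000122), and -1.48 for Txnrd1, which encodes thioredoxin reductase and is named here beyond the 3 per list (adjusted p = 0.00332).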

How the results depend on the processing

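The count of called genes among the 10 moved as follows under the alternatives, with limma adjusted p-values. For CDDO-Im in wild type (0 called) it was 1 without both arrays with acinar transcripts (Cd163), 1 with the pan-macrophage level as a covariate, added after seeing the data (Cd5l), and 0 to 1 when 1 array was left out (Cd163, without wild type vehicle replicate 3). For CDDO-Im in Nrf2 null (0 called) it was 2 in a fit to the compared arrays alone (Timd4, and Cd163 with adjusted p = 0.00858), 1 with array weights (Clec4f, 0.79, adjusted p = 0.044), 1 without both arrays with acinar transcripts (Cd163) and 0 to 1 with 1 array left out (Cd163, without wild type vehicle replicate 3). Between genotypes under vehicle (0 called) it was 4 with array weights (Marco -0.80, Clec4f -0.79, Cd5l -1.34 and Csf1r -0.85) and 0 to 1 with 1 array left out (Cd163 -0.94, without wild type vehicle replicate 3). Between genotypes under CDDO-Im (1 called, Marco) it was 0 with arrays centred on their medians, 0 with the mean of the probe sets of a gene, 0 at an adjusted p under 0.01, 2 without both arrays with acinar transcripts (Marco and Cd163), 2 with the covariate (Marco and Cd5l) and 0 to 2 with 1 array left out. The interaction had 0 called throughout. The cause of these changes was not tested, apart from the threshold, which is stricter by construction.

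Replicate numbers did not pair the arrays: same-numbered arrays of the compared groups had correlations of their deviations from -0.3 to 0.278, and in 5 of the 12 cases checked (9 arrays, 3 of them in 2 comparisons) an array correlated best with its own number. With the number as a replicate block the adjusted p of Marco between genotypes under CDDO-Im was 0.0275, and no call among the 10 changed. Of 1190 values of single genes under alternatives, 1106 kept their sign and side of the threshold, 16 gained a call, 7 lost one and 61 changed sign with no call on either side, at sizes of up to 0.67. For many of the 1190 the sign was fixed in advance. The stricter threshold, the replicate block and the omission of an array outside the comparison do not change a difference. Array weights turned the median of the 10 for CDDO-Im in wild type to -0.16, and the covariate turned that of the interaction to -0.08. Counts over all genes ran from 104 to 2023 for CDDO-Im in wild type (332 as reported), 97 to 1897 in Nrf2 null (1074), 16 to 1477 between genotypes under vehicle (71), 123 to 467 under CDDO-Im (263) and 15 to 89 for the interaction (25), so whether a gene near the threshold is called depends on the setting. With 3 arrays a group, intervals of single genes span about 1 log2 unit or more.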
